A study of Arabidopsis thaliana with 16 samples.

Results

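The cytosolic ribosome of Arabidopsis thaliana is built from ribosomal RNA and a large set of proteins, those of the small (40S) subunit, which reads the mRNA, and those of the large (60S) subunit, which joins the amino acids. Most of these proteins are encoded by small families of near-identical genes called paralogs, whose mRNAs are abundant in growing tissue. In leaves, light is known to act on these mRNAs in large part through their loading onto ribosomes, a step that an array of total RNA does not measure. The group was chosen with earlier results of these data known, and membership in it was set by annotation alone. A probe set of the main category was a member if its description began with 40S or 60S ribosomal protein. This gave 211 of 28403 probe sets, 95 for the 40S and 116 for the 60S subunit, in 76 families, of which 71 had several probe sets.

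The material was whole rosettes. WT (Col-0), sap3 KO and cml49 KO plants were grown for 3 weeks at 80 to 100 µmol photons m-2 s-1 and kept for 10 days at 8 µmol photons m-2 s-1, called LL here. The HL groups then received 800 µmol of photons on the same scale; the titles give 60 min for this step and the treatment protocol gives 10 min, which could not be settled. SAP3 is a zinc finger stress-associated protein and CML49 a calmodulin-like protein. WT and sap3 had 3 arrays in LL and 3 in HL, each of 15 plants, and WT and cml49 had 1 pooled array of 45 plants in each light. The labels do not say whether the pools hold RNA of the single replicates, nor which alleles were used. All plants, controls included, had passed through the 10 days of LL, and the study's title places the work in retrograde control of cytosolic translation during high-light acclimation.

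Of the 12 single-replicate arrays, 3 showed a light state opposite to their label. HSP90.1, a light-induced chaperone here, read 3.62 (log2) in WT HL replicate 2 and 3.17 in sap3 HL replicate 3, against 9.77 to 10.21 in the other 4 HL arrays. It read 11.09 in sap3 LL replicate 2, against 2.80 to 3.86 in the other 5 LL arrays. The SAP3 probe set read 6.98 in that sap3 LL array, above every WT array, and 3.94 in that WT HL array, below every other WT array. On the arrays not opposed it read 4.21 and 4.05 in sap3 LL against 4.84 to 5.14 in WT LL. In HL it read 5.06 and 5.28 in sap3 against 6.14 and 6.48 in WT. SAP3 signal was thus lower in sap3 within each light level, but it was higher in HL in both genotypes. Where the SAP3 probes lie relative to the mutation is not given. In the pools, the CML49 probe set read 3.97 and 4.23 in the pools labelled cml49, and 2.77 and 3.30 in the WT pools, so it was higher in the mutant pools; where its probes lie relative to the mutation is not given. Results are therefore given on all 12 arrays and on the 9 arrays without these 3, and the pools are called by their labels. With 9 arrays, WT LL had 3 and the other groups 2 each; no ribosomal protein gene was used to set the 3 arrays apart.

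The label fitted at most 206 of the 211 probe sets. The other 5 are for mitochondrial ribosomal proteins and were picked out by locus, namely AT2G07715 for L2, AT2G07725 for L5, the L5 probe set 13545116 on the mitochondrial chromosome, AT3G22300 for S10 and AT5G47320 for S19. The probe set on the mitochondrial chromosome read 10.95 to 11.25 over the 12 arrays, among the 5 smallest spreads of all members. Leaving out all 5 left every count of members called by the test as it was, and lowered the count of members past 0.5 in the WT pools, given below, from 31 to 30. The 3 probe sets for S2-2 (AT1G58684, 13380984 and 13381000) had identical values on all 16 arrays and are 1 measurement, so 209 members were distinct. Cross-hybridisation with other transcripts is marked for 9 members, and near-identical paralogs may share signal on others too. Signal reached the median of all probe sets, 4.40, in 165 members (78.2%).

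The comparison of HL with LL asks how the mRNAs of the ribosome respond to the step in light. No ribosomal protein gene changed past the threshold on all 12 arrays. Without the 3 arrays, 4 members rose in WT and 2 in sap3, and none fell. Most members were slightly higher in HL in WT: the differences of 147 of 211 (69.7%, all probe sets 47.2%) lay above 0, with a median of 0.13 (log2). This is close to the spread of 0.10 (SD) of the members' median between single arrays of a labelled group. That spread was taken over all 12 arrays, the 3 opposed ones included, and is not that of a difference of group means. In sap3, 125 of 211 (59.2%, all probe sets 46.5%) lay above 0, with a median of 0.07. The order of the genotypes is limited by the arrays kept. Replicate 2, in which members read low in every group, stayed only in LL for WT and only in HL for sap3. Within replicate numbers whose arrays both had their labelled light state, the medians were 0.05 and 0.17 in WT and 0.16 in sap3.

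Each value above is the difference of group means of log2 values, tested with limma over all 28403 probe sets with Benjamini-Hochberg adjustment, and called at an adjusted p under 0.05. On the 12 arrays, 0 of all probe sets passed (0%) in this comparison in either genotype, so the members' 0 stands beside a background of 0. At an unadjusted p under 0.05, 8 members (3.79%) passed in WT against 6.16% of all probe sets, and 6 (2.84%) in sap3 against 3.14%. The medians on 12 arrays were 0.06 in both genotypes, with 60.7% of members above 0 in WT (all probe sets 46.8%) and 66.4% in sap3 (all probe sets 48.1%).

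With 9 arrays the background was no longer 0. In WT, 9.13% of all probe sets were called, 4.99% higher and 4.14% lower, and the 4 members called made up 1.90%. In sap3, 7.57% were called, 4.09% higher and 3.47% lower, and the 2 members called made up 0.948%. The shares of members called were thus below the background in both genotypes. At an unadjusted p under 0.05, 36 members (17.1%) passed in WT, 34 of them higher, against 20.4% of all probe sets, and 16 (7.58%) passed in sap3, 13 of them higher, against 19.5%. The median over all probe sets was -0.02 in both genotypes, with 47.2% above 0 in WT and 46.5% in sap3.

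The members' light differences spanned less than those of all probe sets. In WT its 10th and 90th percentiles were -0.17 and 0.46, against -0.43 and 0.43 for all probe sets. In sap3 they were -0.28 and 0.38, against -0.46 and 0.46. The lower end thus lay nearer to 0 in the members than in all probe sets in both genotypes, and the upper end did so in sap3. Both subunits had medians above 0 in WT, 0.18 for the 40S and 0.12 for the 60S members. In sap3 the medians were 0.13 for the 40S and 0.05 for the 60S members.

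**Figure D1:**
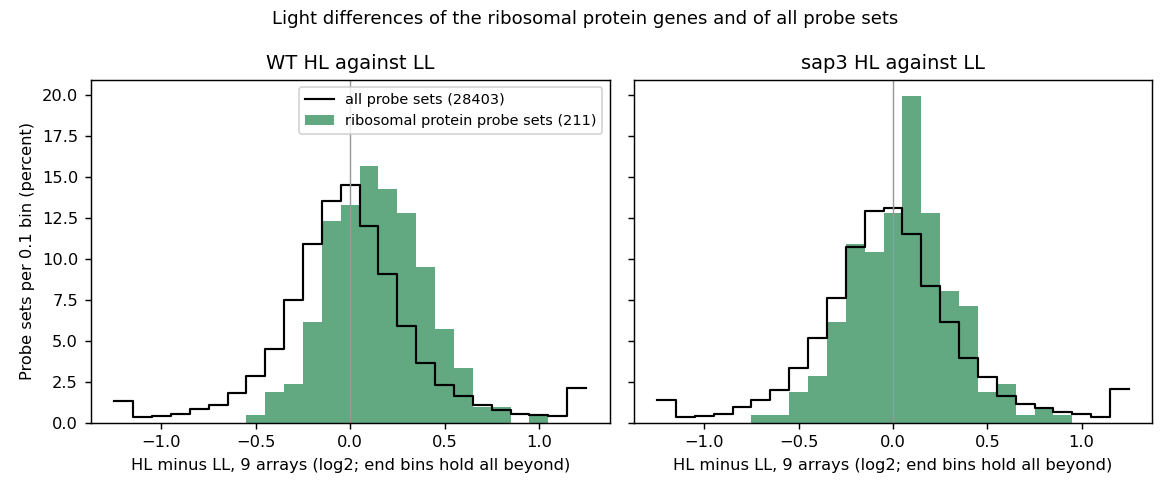
HL minus LL on the 9 arrays (x axis, log2) against the percent of probe sets in each bin of width 0.1 (y axis), with bars for the 211 ribosomal protein probe sets and a line for all 28403; the end bins hold all values beyond. The bars sit to the right of the line in WT (median 0.13). In sap3 (median 0.07) they are narrower than the line, with 10th and 90th percentiles of -0.28 and 0.38 against -0.46 and 0.46. The bars reach neither end bin. The order of these medians was not kept within replicate numbers, where they were 0.05 and 0.17 in WT and 0.16 in sap3.

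The largest light difference on the 9 arrays, in WT and in sap3, was that of Sa-2 (AT3G04770, RPSAb, chr3:1309294-1310887 by the deposited annotation, of unstated genome build). It encodes a 40S protein known in mammals as the laminin receptor precursor. In WT LL it read 3.60, 3.29 and 3.51 (log2), and in WT HL 4.30, 3.65 and 4.60. In sap3 LL it read 3.14, 3.88 and 3.29, and in sap3 HL 4.24, 3.96 and 3.38. Among the 9 arrays the LL and HL values did not overlap in either genotype. Of the 3 arrays set apart, the one labelled sap3 LL lay above both other sap3 LL arrays, the one labelled sap3 HL below both other sap3 HL arrays, and the one labelled WT HL just above the highest WT LL value.

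Sa-2 rose on the 9 arrays by 0.98 ± 0.17 (SE, log2) in WT (adjusted p = 0.00438, limma) and by 0.89 ± 0.18 in sap3 (adjusted p = 0.0152). The difference between genotypes in this response was -0.10, with a 95% interval of -0.65 to 0.46. On all 12 arrays its differences were 0.72 (adjusted p = 0.713) and 0.42 (adjusted p = 0.994). When each of the 9 arrays was left out in turn, the WT call held in 8 of 9 fits and the sap3 call in 6 of 9. The pools read 3.43 in LL and 3.79 in HL for WT, and 3.16 and 4.29 for cml49, so HL was the higher pool in both pairs. Sa-2 was a member with signal below the median of all probe sets. Its paralog Sa-1 (AT1G72370) read 7.50 to 7.90 over the 12 arrays and differed by -0.02 in WT and -0.15 in sap3 on the 9 arrays, with intervals of -0.36 to 0.32 and -0.52 to 0.22.

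S2-4 (AT3G57490, chr3:21279666-21280948) encodes a 40S protein that lies near the entry of the mRNA channel. In sap3 LL it read 4.31, 5.10 and 4.44, and in sap3 HL 5.21, 5.15 and 4.32. In WT LL it read 4.28, 4.84 and 4.52, and in WT HL 5.21, 4.47 and 5.02. The array labelled sap3 LL replicate 2 was with the HL arrays and the one labelled sap3 HL replicate 3 with the LL arrays. Without the 3 arrays S2-4 rose by 0.81 ± 0.19 in sap3 (adjusted p = 0.0316, limma), while the WT difference of 0.57 ± 0.18 did not pass (adjusted p = 0.0824). The genotype difference of the response was 0.24 with an interval of -0.35 to 0.82, so the genotypes could not be separated for this gene. The sap3 call held in 5 of 9 fits with 1 array left out. In the pools S2-4 was 1.22 higher in HL for WT and 1.11 higher for cml49, the largest difference of any member in the WT pair.

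L7-1 (AT1G80750, chr1:30348801-30350564) encodes a 60S protein of the L7 family. It read 7.39, 7.13 and 7.06 in WT LL and 7.88, 7.41 and 7.86 in WT HL. It read 7.27, 7.65 and 7.31 in sap3 LL and 8.18, 7.71 and 7.39 in sap3 HL. On the 9 arrays the light groups did not overlap in either genotype. It rose by 0.68 ± 0.17 in WT (adjusted p = 0.0369, limma), and the sap3 difference of 0.66 ± 0.19 missed the threshold (adjusted p = 0.0711). The pools differed by 0.84 for WT and 0.77 for cml49. The WT call held in 3 of 9 fits with 1 array left out, although the difference stayed between 0.61 and 0.78.

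L14-1 (AT2G20450, chr2:8813862-8815253), of the 60S subunit, read 6.80, 6.57 and 6.50 in WT LL and 7.22, 6.45 and 7.20 in WT HL. Only the array labelled WT HL replicate 2 lay with the LL arrays. It rose by 0.59 ± 0.16 in WT on the 9 arrays (adjusted p = 0.0447, limma), held in 3 of 9 fits. The sap3 difference was 0.36 ± 0.17 (adjusted p = 0.291), and the pools differed by 0.80 and 0.33. Its paralog L14-2 (AT4G27090), among the 5 members with the smallest spread, read 8.57 to 8.91 over the 12 arrays and differed by -0.04 in WT and -0.14 in sap3.

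L13a-4 (AT5G48760, chr5:19771138-19772738) encodes a 60S protein whose human counterpart can leave the ribosome to silence translation. It read 6.72, 6.40 and 6.80 in WT LL and 7.21, 6.83 and 7.24 in WT HL. In sap3 LL it read 6.87, 6.53 and 7.02, and in sap3 HL 6.80, 6.80 and 7.00. The WT groups did not overlap, with all 12 arrays or with 9, whereas the sap3 groups did overlap on all 12 and lay the other way on the 9. On all 12, the array labelled WT HL replicate 2 read 6.83, just above the highest WT LL value of 6.80. That array had the LL state, so its L13a-4 value went with its label and not with its light state. L13a-4 rose by 0.59 ± 0.16 in WT on the 9 arrays (adjusted p = 0.0438, limma), and this call held in 1 of 9 fits. The sap3 difference was -0.15, and the genotype difference of the response was -0.73 ± 0.23, with an interval of -1.24 to -0.22 for this gene alone and an adjusted p of 1 over all probe sets. In the pools it was 0.54 higher in HL for WT and 0.37 higher for cml49. On all 12 arrays the WT differences of L7-1, L14-1 and L13a-4 were 0.52, 0.33 and 0.45 (adjusted p = 0.713 for each, limma), and the sap3 difference of S2-4 was 0.28 (adjusted p = 0.994). With replicate number added to the fit of the 9 arrays as a block, these calls were lost. The adjusted p-values were then 0.0835 for L7-1, 0.0823 for L14-1 and 0.108 for L13a-4 in WT, and 0.132 for S2-4 in sap3 (limma).

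S6 is the substrate of the S6 kinase of the TOR pathway, which couples growth signals to translation; that phosphorylation is not measured here. S6-1 (AT4G31700, RPS6, chr4:15346072-15347727) read 8.45, 8.15 and 8.42 in WT LL and 8.54, 8.12 and 8.68 in WT HL. It read 8.21, 8.08 and 8.19 in sap3 LL and 8.64, 8.16 and 8.46 in sap3 HL. Its differences on the 9 arrays were 0.27 ± 0.18 in WT (adjusted p = 0.453, limma) and 0.20 ± 0.19 in sap3 (adjusted p = 0.649). S6-2 (AT5G10360, EMB3010, chr5:3258474-3260234) read 8.77 to 9.05 over the 6 WT arrays and 8.58 to 8.90 over the 6 sap3 arrays. The 9 arrays gave differences of -0.14 in WT, with an interval of -0.48 to 0.20, and 0.01 in sap3, with an interval of -0.37 to 0.38. Neither S6 gene passed the test.

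**Figure D2:**
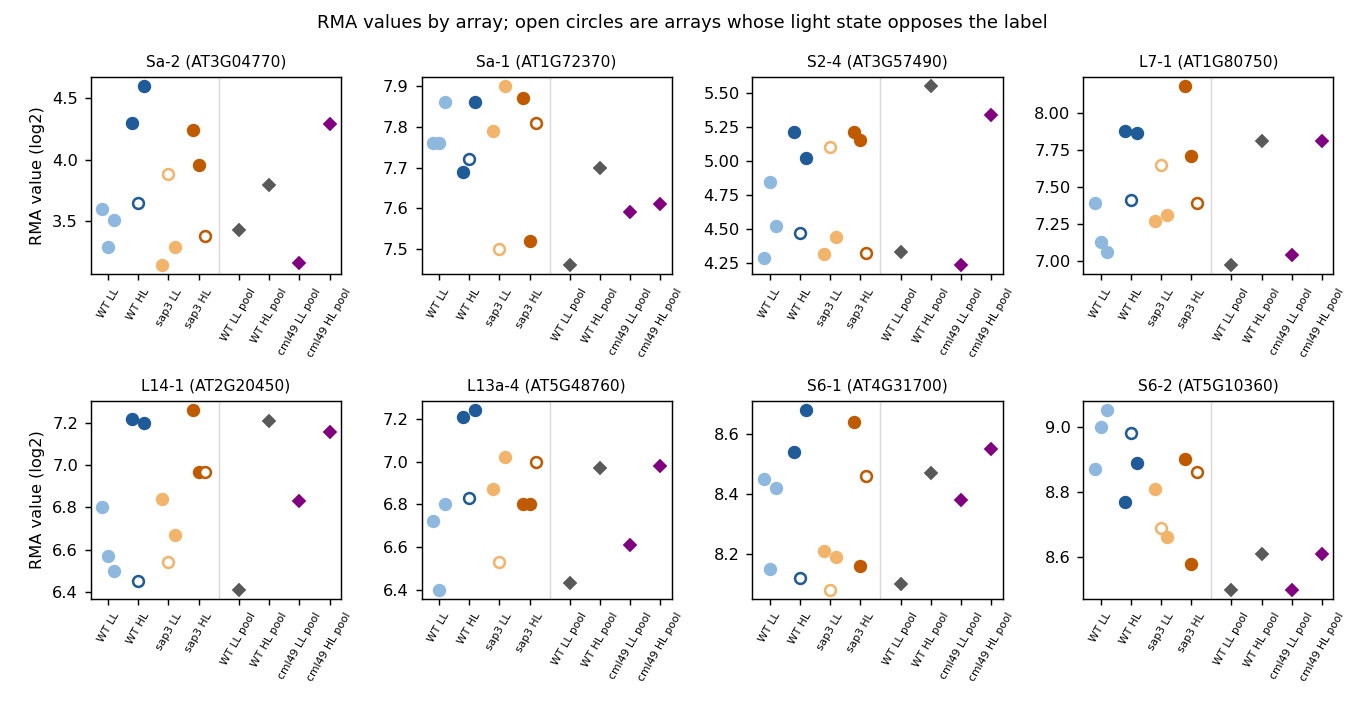
RMA values (y axis, log2, own scale in each panel) of the 5 called genes, Sa-1 and both S6 genes on the 12 single-replicate arrays (circles by group, replicates 1 to 3 from left to right) and the 4 pools (diamonds). Open circles are the 3 arrays whose light state opposes the label; for S2-4 they sit with the opposite light group, and for Sa-1 the groups overlap.

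Members with large differences that did not pass the test filled the rest of the ranking. In WT on the 9 arrays, L41 (AT2G40205), the smallest ribosomal protein, differed by 0.78 (adjusted p = 0.339, limma), S27-2 (AT3G61110) by 0.78 (adjusted p = 0.0582) and L11-2 (AT5G45775), whose family binds 5S ribosomal RNA, by 0.67 (adjusted p = 0.195). The S27-2 values in WT were 5.77, 4.98 and 5.21 in LL and 6.05, 5.73 and 6.15 in HL, where the array labelled WT HL replicate 2 overlapped with LL. At the other end stood L11-1/L16A (AT2G42740) with -0.52 (adjusted p = 0.167), L35-2 (AT2G39390) with -0.38, L39-1 (AT2G25210), which lines the exit tunnel, with -0.37, S15-3 (AT5G09500) with -0.36 and L18a-3 (AT3G14600) with -0.36. L11-1/L16A read 5.30, 5.36 and 5.16 in WT LL and 4.97, 5.14 and 4.54 in WT HL, without overlap. The L11 family thus had members at both ends of the WT ranking.

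In sap3 on the 9 arrays, L23 (AT1G04480) differed by 0.79 (adjusted p = 0.0905, limma) and L26-2 (AT5G67510) by 0.65 (adjusted p = 0.0706). The negative end held S15-6 (AT5G63070) with -0.74 (adjusted p = 0.147), S15-3 with -0.60, S15a-4 (AT3G46040) with -0.52, S7-2 (AT3G02560) with -0.49 and L9-1 (AT1G33120) with -0.47. L9-1, Sa-2, S15-6, L11-2 and the L41 probe set of AT2G40205 had the 5 largest standard deviations over the 12 arrays. L9-1 read 3.42, 3.87 and 4.02 in WT LL and 4.19, 4.50 and 4.07 in sap3 LL. At the steady end, L19-1 (AT1G02780) read 8.52 to 8.78, L27a-2 (AT1G23290) 5.64 to 5.89 and L15-1 (AT4G16720) 8.40 to 8.71.

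The responses of the members in both genotypes were loosely related. Over the 211 members, Pearson's r between the WT and sap3 light differences on the 9 arrays was 0.42, against 0.80 over all probe sets. In WT the members spanned -0.52 to 0.98 and all probe sets -5.79 to 6.54. Because r depends on this span, the lower r does not show that members responded less alike. The points share arrays, normalisation and, for paralogs, signal, so r is a description with n = 211 probe sets and not a test. Sa-2, S2-4 and L7-1 lay together in the upper right, and L13a-4 and S15-6 were above 0 in WT and below 0 in sap3.

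The pools gave a separate view of the light step, with 1 array a group and so no test. A difference of at least 0.5 (log2) was counted. In the WT pair 31 members (14.7%) were higher in HL by this size and 7 (3.32%) lower, against 12.9% and 12.4% of all probe sets. In the cml49 pair 29 (13.7%) were higher and 4 (1.90%) lower, against 11.9% and 12.6%. The share higher was close to the background, and the share lower was well under it. The members' median was 0.24 in the WT pair and 0.17 in the cml49 pair, against 0 and -0.02 for all probe sets. Above 0 lay 157 members (74.4%) in the WT pair, beside a background of 49.4%, and 144 (68.2%) in the cml49 pair, beside 47.8%.

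Both pool pairs were past 0.5 upward in 11 members (5.21%), near the background of 6.2%. They were L35a-1 and L35a-2, L7-1, L34-1 (AT1G26880), the 3 identical S2-2 probe sets, S2-4, the L11-2 probe sets of AT4G18730 and AT5G45775, and L26-2, of which L34-1 and AT4G18730 were named after their values were seen. Downward there were 0 such members, beside a background of 5.62%. Pearson's r between the light differences of the pairs was 0.28 over members and 0.67 over all probe sets. Here too the members spanned less, from -1.15 to 1.22 in the WT pair against -6.41 to 6.83. The L41 probe set of AT3G56020 went from 3.27 to 2.12 in the WT pools and from 2.40 to 3.15 in the cml49 pools. The largest negative means of both pairs belonged to L27-1 (AT2G32220), S29 (AT3G43980), S15a-4, S25-1 (AT2G16360) and L21-2 (AT1G57660). L27-1 owed this to 1 pair, with 2.89 and 1.73 in the cml49 pools against 2.01 and 1.97 in the WT pools. S15a-4 was lower in HL in both pairs, at 5.60 and 5.21 in the WT pools and 5.86 and 5.38 in the cml49 pools.

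Signs were also counted over WT and sap3 on the 9 arrays together with both pool pairs. The light difference was above 0 in all 4 for 79 members (37.4%), beside 17.3% of all probe sets. It was below 0 in all 4 for 15 members (7.11%), beside 19.6%. The 4 differences may share RNA, since the make-up of the pools is not given, and paralogs may share signal.

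**Figure D3:**
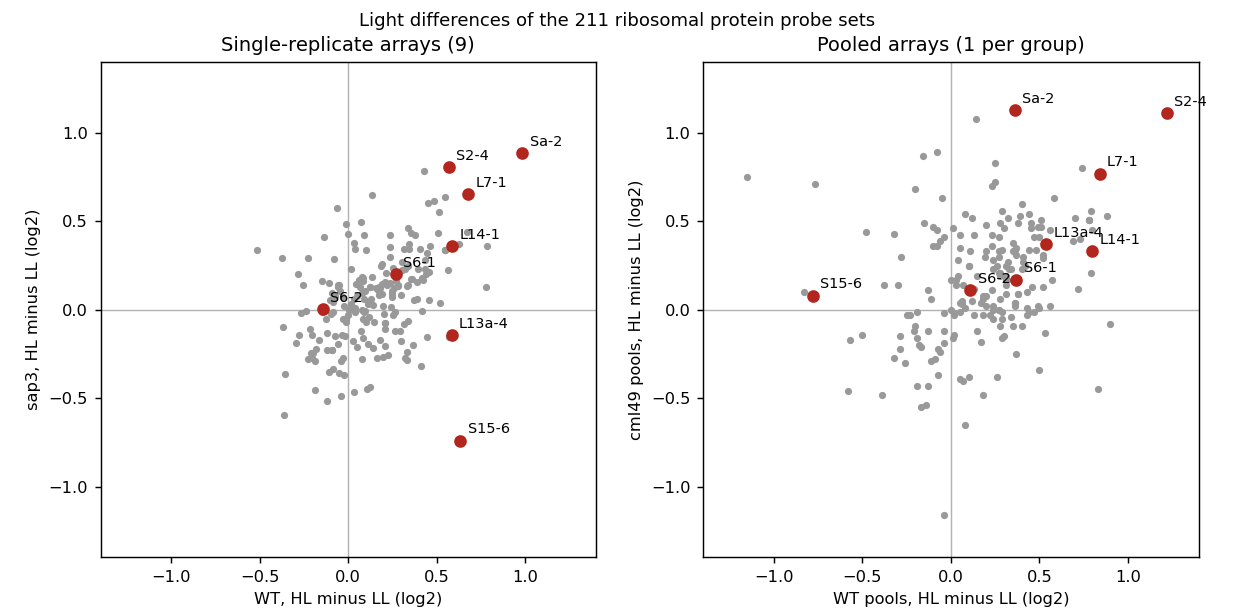
Each point is 1 of the 211 ribosomal protein probe sets. The left panel sets the HL minus LL difference in sap3 against that in WT (9 arrays, log2), and the right panel does so for the cml49 and WT pools; red points are named, with Sa-2 at 0.98 and 0.89 on the left.

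Paralogs of a family often had light differences on both sides of 0. The mean of the WT and sap3 light differences on the 9 arrays was above 0 in all members of 27 of the 71 families with several probe sets, below 0 in all members of 2, and on both sides of 0 in 42, with the 5 mitochondrial probe sets left out. The median SE of a member's difference was 0.17 in WT and 0.19 in sap3, and no background of mixed signs was counted. Whether paralogs responded differently was not tested. The widest families were Sa, from -0.08 to 0.93, then S2, from -0.15 to 0.69, L7, from -0.17 to 0.67, L41, from -0.24 to 0.57, and L35a, from -0.21 to 0.53. In the S2 family, S2-4 stood at the top, the S2-2 measurement differed by 0.55 in WT and 0.34 in sap3, S2-1 (AT1G58380) by 0.37 and -0.20, and S2-3 (AT2G41840) by -0.03 and -0.28. In the L7 family, L7-2 (AT2G01250) differed by 0.12 and -0.04, L7-3 (AT2G44120) by -0.05 and 0.11, and L7-4 (AT3G13580) by -0.17 in both genotypes, against 0.68 and 0.66 for L7-1. L7-1 was the highest of its family in all 4 light differences, the pools included, and L7-4 the lowest.

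The 7 L41 probe sets agreed poorly with each other. Their WT differences ran from -0.19 to 0.78 on the 9 arrays, and their cml49 pool differences from -0.05 to 1.08. The L41 probe sets of AT1G56045, AT3G08520 and AT3G11120 differed by -0.06, 0.01 and 0.21 in WT, and those called 13360942 and 13448631 by -0.19 and -0.02. In the L35a family, L35a-4 (AT3G55750) differed by 0.45 in WT and 0.61 in sap3, while L35a-3 (AT1G74270) differed by -0.28 and -0.14. L35a-4 then differed by 0.83 in the WT pools and -0.45 in the cml49 pools, so its pairs went opposite ways.

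**Figure D4:**
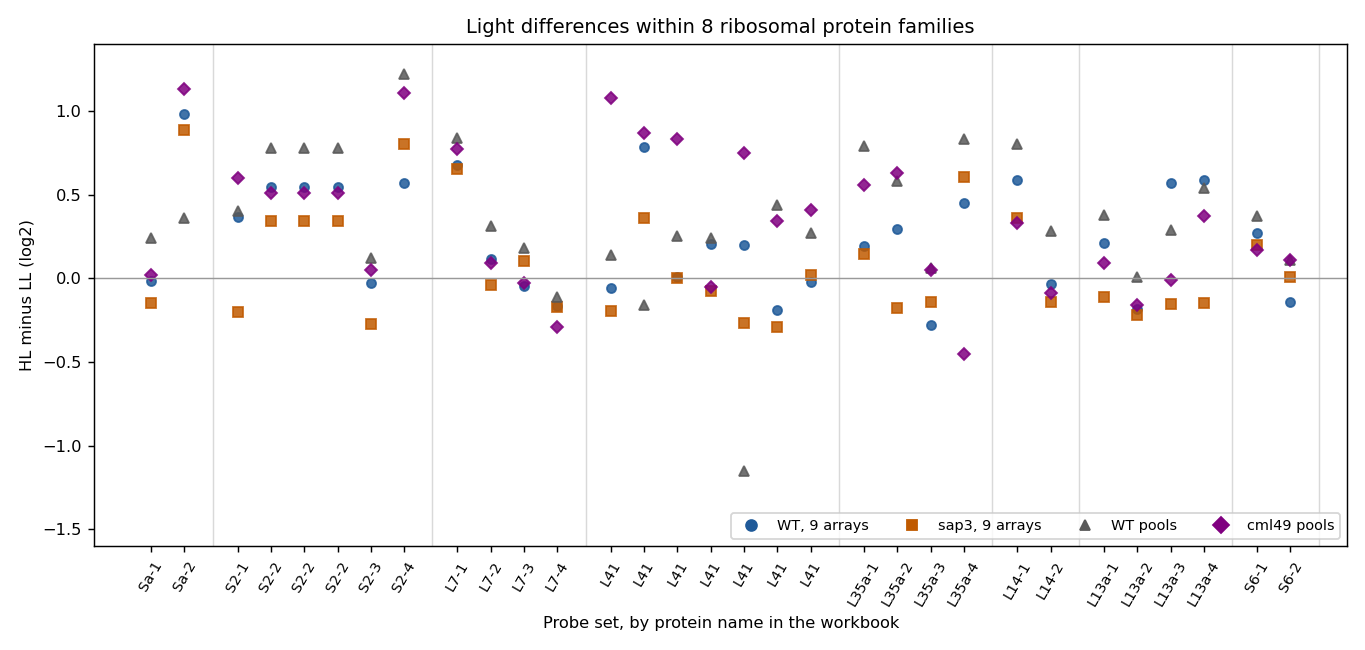
HL minus LL (y axis, log2) of each probe set of 8 families (x axis, by protein name), with symbols for WT and sap3 on the 9 arrays and for both pool pairs. In Sa, L7 and L14 a single paralog stands above the others, Sa-2, L7-1 and L14-1, whereas the symbols of the L41 probe sets scatter, from -1.15 to 1.08. In S2, S2-4 is the highest, but in WT on the 9 arrays it stands at 0.57 beside S2-2 at 0.55.

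The comparison of sap3 with WT asks whether loss of SAP3 alters these mRNAs within a light level. No member was called in LL or HL, on 12 or on 9 arrays, and none in the difference of the light responses. In HL on the 9 arrays most members were lower in sap3, 160 of 211 below 0, with a median of -0.14. In LL on the 9 arrays 124 of 211 lay below 0, with a median of -0.03. On all 12 arrays 138 lay below 0 in HL, with a median of -0.05. The HL arrays kept were replicates 1 and 3 in WT and 1 and 2 in sap3, so genotype and replicate number were not balanced. In replicate 1 the members' median deviation from their means over the 12 arrays was 0.07 in WT HL and 0.10 in sap3 HL.

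All probe sets gave few calls here too: 0% in each of these 3 comparisons on 12 arrays, and on 9 arrays 0% in LL, 0.00352% in HL, which is 1 probe set, and 0% for the difference of responses. At an unadjusted p under 0.05 on the 12 arrays, 9 members passed in LL (all probe sets 4.52%), 3 in HL (2.86%) and 3 for the difference of responses (2.62%). On the 9 arrays these were 7 members in LL (6.01%), 9 in HL (4.48%) and 10 for the difference (4.2%). The share of all probe sets above 0 on the 9 arrays was 50.9% in LL, 49.9% in HL and 49% for the difference. The members' shares above 0 were 40.8%, 23.7% and 34.1%. The median in HL was -0.03 without sap3 HL replicate 2 and -0.26 without sap3 HL replicate 1, so its size depended on which of the 2 sap3 HL arrays was kept.

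S15-6 (AT5G63070, chr5:25299178-25299660), a dim member of the S15 family of the 40S head, had the largest genotype difference of response. It read 2.20, 2.79 and 2.47 in WT LL and 2.72, 2.33 and 3.52 in WT HL. In sap3 it read 3.22, 2.31 and 3.05 in LL and 2.49, 2.30 and 2.49 in HL. On the 9 arrays the sap3 light groups did not overlap, with LL the higher, while the WT groups overlapped. Its difference of responses was -1.37 ± 0.36 (unadjusted p = 0.00358, adjusted p = 1, limma). Its values lay below the median of all probe sets on every array, and the pools read 3.07 and 2.29 for WT and 2.13 and 2.21 for cml49. The WT pools thus differed in the direction opposite to the WT replicates.

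Other members led the genotype rankings without passing the test. In LL on the 9 arrays, S19-2 (AT5G15520) differed by 0.64 and S27-2 by 0.49 between sap3 and WT, and L11-1/L16A by -0.70, L12-3 (AT5G60670), of the base of the stalk, by -0.64 and S29 (AT3G43980) by -0.57, with adjusted p-values of 0.687 or more (limma). In HL, L8-2 (AT3G51190) and S9-2 (AT5G39850) each differed by 0.57 and S28-1 (AT3G10090) by 0.54, and the L41 probe set of AT2G40205 by -0.83 and L23a-2 (AT3G55280), at the mouth of the exit tunnel, by -0.59, all with an adjusted p of 0.996. S9-2 read 5.76, 5.65 and 5.51 in WT HL and 6.25, 6.15 and 5.88 in sap3 HL, without overlap on all 12 arrays. In LL its 5.80, 5.98 and 5.97 in WT overlapped with 6.24, 6.12 and 5.76 in sap3. The largest positive differences of responses were those of L11-1/L16A, 0.85, L35-2, 0.67, and S28-1, 0.64, and S19-2 stood at -0.73, each with an adjusted p of 1.

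Between the pools labelled cml49 and WT, 10 members were at least 0.5 higher and 10 lower in LL (4.74% each), against 6.97% and 7.05% of all probe sets. In HL 8 were higher (3.79%) and 6 lower (2.84%), against 5.03% and 6.32%. The medians were 0.06 and 0.03, with 59.7% and 55% of members above 0 beside 50.4% and 49.3% of all probe sets. The largest means of both light levels were those of S15a-5 (AT4G29430), S26-2 (AT2G40510) and S15a-1 (AT5G59850) on the positive side. S15a-5 read 3.98 and 3.33 in the cml49 pools and 2.90 and 2.98 in the WT pools. On the negative side stood the L41 probe set of AT2G40205, S18 (AT1G34030) and S15-6. S18 read 4.49 and 4.44 in the cml49 pools and 4.98 and 5.27 in the WT pools.

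The members' median was low on all 4 replicate 2 arrays. The median deviation of the members from their own means over the 12 arrays was -0.07 in WT LL, -0.11 in WT HL, -0.06 in sap3 LL and -0.10 in sap3 HL for replicate 2, negative in all 4 groups. For replicates 1 and 3 it was 0.03 and 0.04 in WT LL, 0.07 and 0.19 in WT HL, -0.06 and -0.02 in sap3 LL, and 0.10 and 0.02 in sap3 HL. Of the 4 replicate 2 arrays, 2 are among the 3 set apart. The labels do not say what a replicate number shares.

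Within a replicate number, the median HL minus LL difference of the members was 0.05 in WT replicate 1, 0.17 in WT replicate 3 and 0.16 in sap3 replicate 1, the 3 pairs in which both arrays have the light state of their label. The differences of 116, 147 and 150 of 211 members were above 0 in these pairs, where 49.1%, 45.9% and 48.2% of all probe sets were. In the pairs of WT replicate 2 and sap3 replicate 2, whose arrays share 1 light state, it was -0.05 in each. The pair of sap3 replicate 3, likewise, gave 0.05. On 9 arrays the sap3 median of 0.07 became -0.035 without sap3 HL replicate 1, with 0 members called, and 0.17 without sap3 HL replicate 2, with 4 called. The WT median of 0.13 became 0.06 without WT HL replicate 3, with 0 called, and 0.20 without WT HL replicate 1. The direction in sap3 therefore rested on sap3 HL replicate 1.

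**Figure D5:**
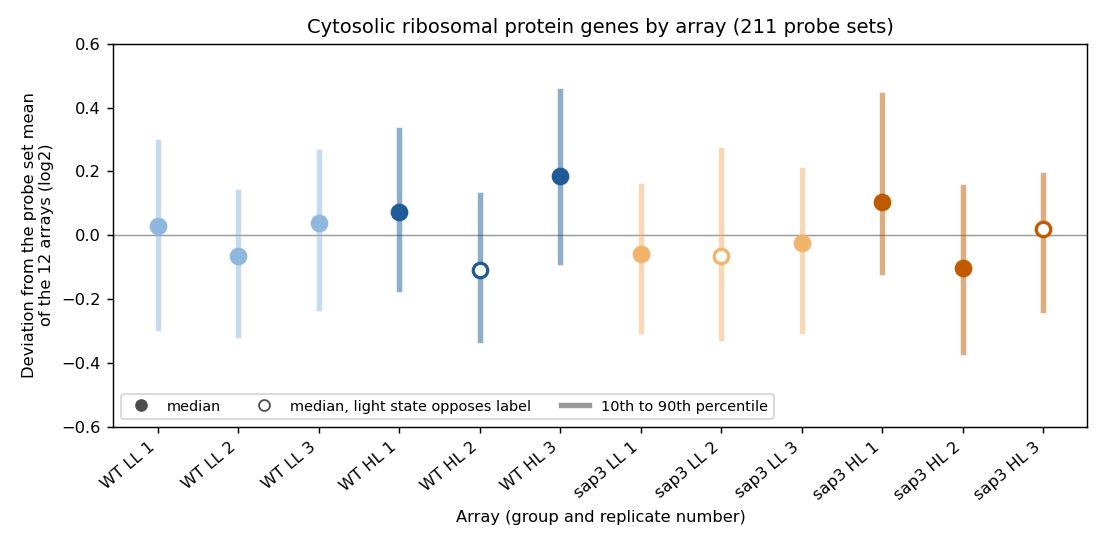
Median (circle) and 10th to 90th percentile (bar) of the deviation of the 211 probe sets from their own means over the 12 arrays (y axis, log2), for each array (x axis). Open circles are the 3 arrays whose light state opposes the label; the 4 replicate 2 arrays lie between -0.06 and -0.11, and WT HL replicate 3 is highest at 0.19.

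The partners of these proteins were read beside them on the 9 arrays. Of 14 genes for the P stalk, the acidic proteins that recruit elongation factors, 0 were called, and their medians were 0.11 in WT and 0.09 in sap3. P2-4 (AT3G44590) differed by 0.37 in WT (adjusted p = 0.223, limma). Of 8 genes for the ubiquitin fusions of S27A and L40 and for RACK1, a scaffold on the 40S subunit, 2 are members themselves, and 0 were called; RACK1B (AT1G48630) differed by 0.59 in WT (adjusted p = 0.0957). The medians were 0.21 in WT and -0.02 in sap3. Of 24 translation initiation and elongation factors 0 were called, with medians of 0.16 and 0.08.

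Among 35 ribosome biogenesis factors, which process ribosomal RNA and assemble the subunits, 2 rose in WT, 0 fell, and 0 were called in sap3. All probe sets were called higher at 4.99% in WT and 4.09% in sap3, so the 2 of 35 in WT were near the background. The medians were 0.16 in WT and 0.15 in sap3. AT5G08180, a subunit of the H/ACA particle that guides pseudouridine formation, read 4.99, 4.87 and 4.89 in WT LL and 5.73, 4.76 and 5.83 in WT HL. It rose by 0.86 (adjusted p = 0.00248, limma), and only the array labelled WT HL replicate 2 lay with LL. NOP56 (AT1G56110), of the particle that methylates ribosomal RNA, rose by 0.52 (adjusted p = 0.0398). In the pools the biogenesis list had medians of 0.52 for WT and 0.32 for cml49, above the 0.24 and 0.17 of the ribosomal proteins; this difference was not tested. On all 12 arrays 0 genes of these 4 lists were called in either genotype, where the background is 0%.

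Markers of cell types that a rosette could hold were read on the same fits. Of 15 cell division genes 1 rose in WT, MCM2 by 0.61 (adjusted p = 0.0355, limma), and 1 in sap3, PCNA1 by 0.72 (adjusted p = 0.0496), both factors of DNA replication. A count of 1 in 15 is near the background of 4.99% called higher in WT and 4.09% in sap3. The median difference of the 15 genes was 0.10 in WT and -0.04 in sap3, and 0.26 in the WT pools and -0.25 in the cml49 pools. Their summed linear signal was 522 to 638 in WT LL and 714 and 727 in WT HL on the 9 arrays, so it was higher with HL in WT, beside the ribosomal protein median of 0.13. In sap3 it was 546 and 550 in LL and 612 and 640 in HL. Fewer cells of a type and less RNA per cell cannot be told apart in such tissue. The part of dividing cells in the ribosomal protein differences was not tested.

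All 6 leaf mesophyll markers lay above the array median on every array, with a summed signal of 19039 to 24098 over the 12 arrays. RBCS1B was called higher in WT and in sap3, by 1.34 and 1.22, and CAB3, named after its value was seen, was called lower in sap3. Of 7 root markers 6 lay below the array median on every array, 0 were called, and the sum was 389 to 654 in WT LL, 270 and 307 in WT HL, 308 and 642 in sap3 LL, and 292 and 476 in sap3 HL on the 9 arrays. Of 6 flower markers 5 or 6 lay below it, 0 were called, and the sums were 33 to 45 over the 12 arrays. The 3 light markers, HSP90.1, GPT2 and BT2, were called in both genotypes, 2 higher and 1 lower, and had shown the light state of the arrays, so these calls are a description.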

How the data were processed

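Whole rosettes were measured on 16 Affymetrix gene arrays. Per the submitters' processing notes, the authors made the deposited log2 values with RMA in Affymetrix Expression Console; version, probe set library and build are not given in the sources used here. Descriptions, positions and the cross-hybridisation code, a code number among other deposited annotation, came from the authors' workbook, whose 16 value columns were not used; loci were checked against a RefSeq gene table, which 206 members overlapped. Of 28501 probe sets, 77 rescue and 21 rRNA probe sets were left out. limma 3.58.1 in R 4.3.3 fitted 4 group means (lmFit, eBayes, two-sided), with Benjamini-Hochberg adjustment over 28403 probe sets; the script was tested on simulated data. Pools were compared by difference only. Arrays carry no counts, so their number, 2 or 3 a group, limits the precision, and p-values measure the spread between the labelled biological replicates. RMA can compress differences of dim and cross-hybridising probe sets, and signal is set only against the median of all probe sets, with no fold between probe sets.

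The members and lists were chosen with earlier results of these data known. Genes named are both S6 genes, all members called, the 5 largest light differences each way in WT and sap3 on 9 arrays, the 3 largest each way in the other tested comparisons, 5 each way in the pools and 3 each way between pool genotypes, the 5 largest and smallest standard deviations, the 5 widest families and up to 3 genes a list; others are said to be named after their values were seen. Alternatives were other priors, array weights, a replicate block, centring, quantile normalisation, filters on dim and cross-hybridising probe sets, and leaving out arrays.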

Additional observations from a re-analysis of the deposited data

How the results depend on the processing

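With all 12 arrays kept, no alternative called a member in any of the 5 tested comparisons, and leaving out each array in turn gave 0 calls throughout. Those fits moved the median from -0.022 to 0.13 for HL against LL in WT, from 0 to 0.11 in sap3, from -0.06 to -0.02 and from -0.14 to 0.017 for sap3 against WT in LL and HL, and from -0.10 to 0.075 for the difference of responses. Without the 3 arrays the called members became 4 in WT and 2 in sap3, and again 4 and 2 with identical probe sets counted once or without the 5 mitochondrial probe sets; with a mean-dependent prior they were 8 and 4. Leaving out 1 more array gave 0 to 4 in WT and 0 to 4 in sap3, with medians of 0.06 to 0.20 and -0.035 to 0.17; the calls went to 0 without WT HL replicate 3 and without sap3 HL replicate 1, and Sa-2 also lost its sap3 call without sap3 LL replicate 1 or 3. In the other 3 comparisons it gave 0 calls, with medians of -0.06 to 0.00, -0.26 to -0.03 and -0.20 to 0.02. In the paired check, run over all probe sets after group means were taken out, same-numbered arrays correlated between -0.63 and 0.53 on 12 arrays. That range includes the 3 opposed arrays. On 9 arrays it was -0.04 to 0.08, but there the arrays of a group of 2 mirror each other. The check is therefore weak and cannot decide whether same-numbered arrays share an effect. The members' median was low on every replicate 2 array. With a replicate block on 12 arrays 0 members were called, the median staying at 0.06 in WT and in sap3, and with a replicate block on 9 arrays 1 was called in WT and 2 in sap3 with medians of 0.09 and 0.15; Sa-2 kept both calls, and L7-1, L14-1, L13a-4 and S2-4 lost theirs. L30-2 (AT1G77940), named after its values were seen, was called in sap3 with the block, at 0.82 (adjusted p = 0.0442, limma), against 0.62 (adjusted p = 0.102) without it. Of the member differences of at least 0.5 in the pools, 38 and 33 for light in WT and cml49 and 20 and 14 for genotype in LL and HL, leaving out dim probe sets kept 22, 21, 10 and 3, and a size of at least 1 kept 2, 4, 2 and 1. The cause of these moves was not tested, apart from fewer arrays or probe sets by construction. The priors and the block on 9 arrays, the counting of identical probe sets and the fits without mitochondrial ones were added after seeing the data. Signal near background limits dim members such as Sa-2 and S15-6.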
